A study of Mus musculus with 2 samples.

Results

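The 9 genes described here belong to the families that make, carry or sense retinoic acid, the active form of vitamin A. They are the retinol dehydrogenase gene Rdh10, the retinal dehydrogenase genes Aldh1a1, Aldh1a2 and Aldh1a3, the gene Aldh1a7 of the same family, whose enzyme is reported not to oxidise retinal, the binding protein gene Crabp2, and the receptor genes Rara, Rarb and Rarg. They, and the gene lists used below, were chosen by name with earlier results of these data known. All 9 were found among the 18724 genes of the deposited table. The samples were luminal epithelial cells of the prostate of mice aged 18 weeks, sorted by flow cytometry into L-GFP+ and L-GFP- populations. L-GFP+ cells are label-retaining cells (LRCs), which had kept a GFP label carried on histone 2B that is diluted when cells divide, and L-GFP- cells are non-LRCs. Each group was 1 library, so every value compares 2 libraries, not the conditions, and has no replicate check. The mouse strain, the promoter driving the label, the surface markers of the sort and the number of mice pooled are not stated in the labels. Intervals are 95% exact intervals that cover counting error only.

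Cells take up retinol, oxidise it reversibly to retinal, and oxidise retinal irreversibly to retinoic acid. RDH10 carries out the first step, and ALDH1A1, ALDH1A2 and ALDH1A3 the second. CRABP2 carries retinoic acid to the nucleus, where retinoic acid receptors (RARs), paired with retinoid X receptors (RXRs), bind DNA response elements and regulate transcription. CYP26 enzymes degrade retinoic acid. In the prostate, vitamin A deficiency or loss of Rarg in mice leads to squamous metaplasia of the epithelium, and high ALDH activity is widely used to enrich epithelial progenitor cells.

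Reads over the genes of the deposited table totalled 50689229 for LRCs and 48334265 for non-LRCs. All 10 luminal markers, among them Krt8, Krt18 and Epcam, were measured, and they held 1.60% of LRC and 1.03% of non-LRC reads, with 3 higher and 0 lower in the LRC library. Pbsn, a secretory gene and the most abundant of them, had a log2 ratio (LRC over non-LRC) of 1.45. Markers of other cell types were present too and were unequal between the sorts. The 10 basal markers held 0.0799% of LRC and 0.811% of non-LRC reads, and all 10 were lower in the LRC library, with log2 ratios from -4.78 to -1.17. The same held for all 10 markers of T and natural killer cells (0.000811% and 0.0394% of reads, Gzma at 0 in the LRC library) and all 10 of smooth muscle (0.00763% and 0.104%). The 7 seminal vesicle genes were all higher (0.167% and 0.00175%), with Svs2 at 6.97 and Svs6 and Svs3a at 0 reads in the non-LRC library. The part of these cells in the retinoid values was not tested. In such bulk samples, fewer cells of a type and less RNA per cell cannot be told apart.

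Of the 9 retinoid genes, 5 were at least 2-fold lower in the LRC library (Aldh1a7, Aldh1a1, Rdh10, Rarg and Rarb), 1 was at least 2-fold higher (Aldh1a2), and 3 were neither (Rara, Aldh1a3 and Crabp2). A gene counted as lower or higher when its log2 ratio, LRC over non-LRC, was at most -1 or at least 1 and its counting interval excluded 0. By the same rule 19.4% of the 17183 measured genes were lower and 14.5% higher. All 9 genes passed the minimum of 10 normalised counts that defines a measured gene. Their median log2 ratio was -1.59, beside -0.0052 over all measured genes. These 6 calls were the same when the libraries were scaled by total reads, by median of ratios, by TMM or on the luminal keratins Krt8 and Krt18. Median of ratios and TMM shift every ratio by only 0.013 and 0.0057, too little to change any of these calls. The keratin scaling lowers every ratio by 0.78 on the log2 scale, and with it 88.8% of all calls lie on the lower side, compared with 57.3% under the deposited scaling and 67.6% under total reads. Of all measured genes, 41.3% were lower and 5.23% higher under the keratin scaling, and 23.3% and 11.1% under total reads. Together the 9 genes held 0.0167% of LRC and 0.0682% of non-LRC reads.

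**Figure D1:**
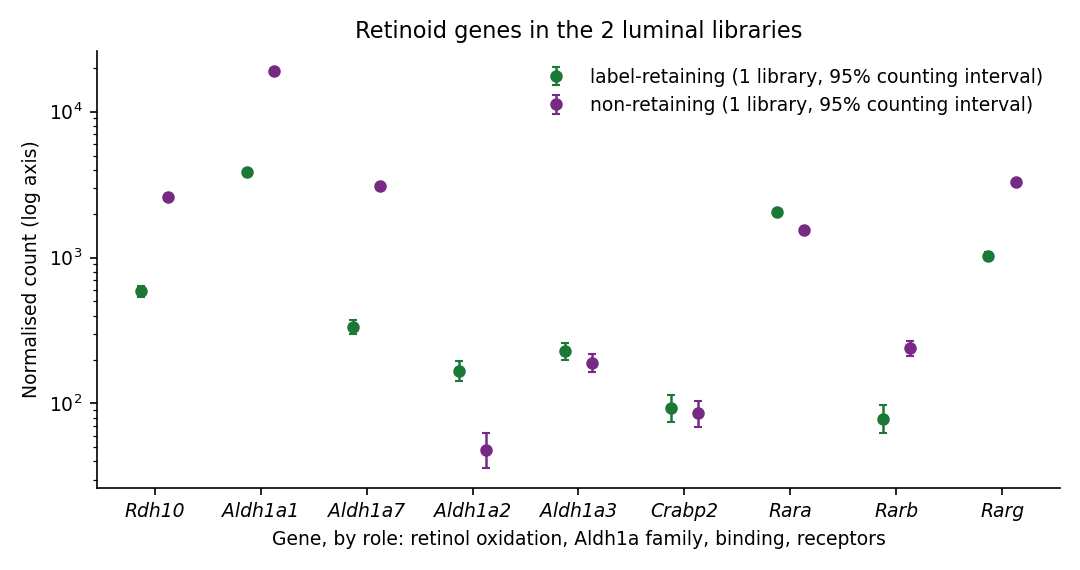
Normalised count (log axis) of each retinoid gene in the LRC (label-retaining, green) and non-LRC (non-retaining, purple) library, with 95% counting intervals; genes are ordered by role on the horizontal axis. Aldh1a1 was the most counted gene of the 9 in both libraries, and Aldh1a2 was the one at least 2-fold higher in the LRC library (168 against 48.2).

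Rdh10 (chromosome 1, 16105774 to 16133734, plus strand, mm10) encodes the enzyme that oxidises retinol to retinal. It had 588 reads, or 587 normalised counts, in the LRC library and 2876 reads, or 2616 normalised counts, in the non-LRC library. The LRC library was thus the low one, by 4.46-fold (interval 4.08 to 4.88), a log2 ratio of -2.16. Of the measured genes, 8.79% had a lower ratio.

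Aldh1a1 (chromosome 19, 20492715 to 20643465, plus strand) encodes the retinal dehydrogenase most often used as a progenitor marker. It had 3852 reads, or 3844 normalised counts, in the LRC library, compared with 20738 reads, or 18865 normalised counts, in the non-LRC library. This was 4.91-fold lower (interval 4.74 to 5.08), a log2 ratio of -2.29. Aldh1a7 (20692953 to 20727562, minus strand), a rodent gene next to Aldh1a1 at a distance of 49487 bases, had 334 reads (333 normalised counts) against 3421 (3112 normalised counts). Its difference was the farthest from equality of the 9 genes, 9.34-fold lower (8.34 to 10.5), a log2 ratio of -3.22. Only 4.52% of measured genes had a lower ratio.

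The coding sequences of Aldh1a1 and Aldh1a7 are close copies, which bears on how reads could be assigned. In GENCODE release M21 both have 1503 coding bases without the stop codon, of which 1377 (91.6%) are identical when set side by side. Their longest identical run is 100 bases. It lies within coding bases 742 to 861, printed here for both genes from the GENCODE transcripts (5′ to 3′, joined across exons, GRCm38), with the 3 bases that differ in capitals:
Aldh1a1: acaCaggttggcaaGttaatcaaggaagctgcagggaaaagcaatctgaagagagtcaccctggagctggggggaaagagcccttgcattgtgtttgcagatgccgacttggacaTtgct
Aldh1a7: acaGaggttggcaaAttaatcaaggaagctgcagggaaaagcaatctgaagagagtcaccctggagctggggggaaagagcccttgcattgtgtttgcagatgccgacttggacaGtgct
Of the different 50-base stretches in Aldh1a7 transcripts, 151 of 2017 (7.49%) also occur in Aldh1a1 transcripts, and of the 100-base stretches 1 of 1967. No 50-base stretch of Aldh1a2 or Aldh1a3 occurs in Aldh1a1. Neither the read length nor the authors' treatment of reads with several positions is given in the sources used here, so the split between Aldh1a1 and Aldh1a7 is uncertain. With their reads added together, 4186 against 24159, the log2 ratio was -2.40 (interval -2.44 to -2.35). The sum is mostly Aldh1a1 reads, so it describes the pair together and not Aldh1a7 alone.

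Aldh1a2 (chromosome 9, 71215789 to 71296243, plus strand), the main retinal dehydrogenase of the early embryo, went the other way. It had 168 reads (168 normalised counts) in the LRC and 53 reads (48.2 normalised counts) in the non-LRC library. The LRC library was the high one by 3.48-fold (interval 2.54 to 4.83), a log2 ratio of 1.79, and 5.66% of measured genes had a higher ratio. Under the keratin scaling the log2 ratio was 1.01 (0.56 to 1.49), just past the 2-fold line. Aldh1a3 (chromosome 7, 66390890 to 66427517, minus strand), a retinal dehydrogenase of many adult epithelia, had 229 reads (229 normalised counts) against 208 (189 normalised counts). Its log2 ratio of 0.27 had an interval that held 0 (-0.0049 to 0.55) and turned to -0.51 under the keratin scaling (-0.79 to -0.23), so its direction depended on the scaling.

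Measured per exon length, so that genes can be compared, Aldh1a1 made up most of the Aldh1a family in both libraries. It held 73.2% of the family's summed level in the LRC and 70.9% in the non-LRC library. Aldh1a7 held 15.2% and 27.9%. Aldh1a2 held 6.96% of the family's level in the LRC and 0.395% in the non-LRC library, and Aldh1a3 4.65% and 0.760%. The ratio of Aldh1a1 to Aldh1a2 per length was 10.5 (interval 9.01 to 12.3) in the LRC and 179 (137 to 240) in the non-LRC library. Such ratios within a library do not depend on how the libraries are scaled, but they do depend on the length chosen. With the longest coding transcript as the length, Aldh1a1 has 2358 instead of 4937 bases, and Aldh1a2 and Aldh1a7 are unchanged. Aldh1a1 then stood at 1630 instead of 779 normalised counts per kilobase in the LRC and at 8000 instead of 3821 in the non-LRC library. The shares, ratios and intervals above use all exons and do not cover this choice. By all exons, the summed level of the family was 5.07-fold lower in the LRC library.

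Crabp2 (chromosome 3, 87948666 to 87953376, plus strand), which carries retinoic acid to its nuclear receptors, was near equality. It had 93 reads (92.8 normalised counts) and 94 reads (85.5 normalised counts). The interval of its log2 ratio, -0.31 to 0.55 around 0.12, held 0 and reached from 0.806 to 1.46 times as a fold. The ratio was -0.08 under scaling by total reads and -0.66 (-1.09 to -0.24) under the keratin scaling.

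The receptor genes were unlike one another. Rara (chromosome 11, 98927818 to 98974942, plus strand), the widely expressed receptor, had 2071 reads (2067 normalised counts) in the LRC and 1689 reads (1536 normalised counts) in the non-LRC library. This was 1.35-fold higher (interval 1.26 to 1.44) under the deposited scaling, with a log2 ratio of 0.43 that turned to -0.36 under the keratin scaling. Rarg (chromosome 15, 102234938 to 102257517, minus strand), the receptor prominent in skin and other stratified epithelia, had 1031 reads (1029 normalised counts) against 3600 (3275 normalised counts). It was 3.18-fold lower in the LRC library (2.97 to 3.41), a log2 ratio of -1.67, and 2064 of the 17183 measured genes had a lower ratio.

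Per exon length, the order of Rara and Rarg was opposite in the libraries. The level of Rara was 1.96 times that of Rarg (interval 1.82 to 2.12) in the LRC library and 0.458 times (0.432 to 0.485) in the non-LRC library. Rara held 64.9% of the summed level of the 3 receptor genes in the LRC library, and Rarg held 65.9% in the non-LRC library. With the longest coding transcript as the length, a choice made after seeing the data, the ratios were 1.75 and 0.409. No 50-base stretch was shared between transcripts of any pair of the 3 receptor genes.

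Rarb (chromosome 14, 16430839 to 16819156, minus strand) is itself a classic target of retinoic acid. It had 79 reads (78.8 normalised counts) in the LRC and 262 reads (238 normalised counts) in the non-LRC library, 3.02-fold lower (interval 2.34 to 3.94), a log2 ratio of -1.59. It was the least abundant receptor gene per exon length in both libraries, with 2.05% and 3.88% of the receptors' summed level. Its exons overlap those of Top2b on the opposite strand over 1793 of 5265 bases (34.1%). The library kit keeps strand, but whether strand was used in counting is not given in the sources used here, so the value for Rarb is uncertain. Top2b, a topoisomerase gene, had 4470 reads against 8903, with a log2 ratio of -0.86 (-0.91 to -0.81), nearer to equality than that of Rarb.

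A RefSeq promoter window of Rarb held a retinoic acid response element of the kind for which this gene is known, and is shown because Rarb is both a receptor and a readout of the pathway. The RefSeq start of this window lies inside the gene, whose 5′ end in GENCODE is at 16819156. Reads counted over the whole gene do not show which start its transcripts used. The 150 bases before the start of this window (GRCm38.p6, chr14:16575477-16575626, minus strand), 5′ to 3′ with the element in capitals, read as follows.
Rarb: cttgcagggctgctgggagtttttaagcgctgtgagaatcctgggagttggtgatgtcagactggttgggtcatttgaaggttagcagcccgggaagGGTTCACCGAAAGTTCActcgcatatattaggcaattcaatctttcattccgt
The element, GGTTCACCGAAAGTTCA, lies 53 to 37 bases before the start. The search took 2 half-sites in the same orientation, each either AGGTCA or the variant AGTTCA or the variant GGTTCA or the variant GGGTCA, separated by 5 bases, on both strands, with overlapping matches counted. Of 32851 RefSeq promoter windows of 300 bases, 32 (0.0974%) held such a pair. For 6 of the 9 genes (Aldh1a1, Aldh1a2, Aldh1a7, Rara, Rarb and Rarg) 11 windows were found, and the only one with a match belonged to Rarb. Because the variants searched include GGTTCA and AGTTCA, the half-sites of this known element, the match in Rarb was set by the choice of variants. With spacers of 1 or 2 bases, which 0.222% and 0.268% of windows held, none of the 6 had a match. A match is a description of the letters, and no binding was measured here.

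**Figure D2:**
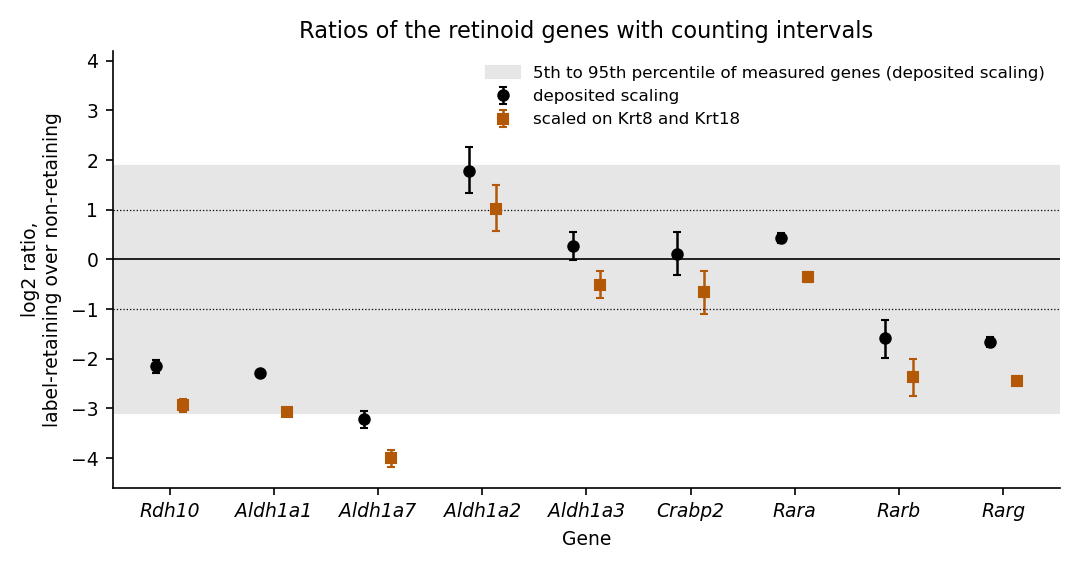
log2 ratio (LRC over non-LRC) of each retinoid gene with its 95% counting interval, under the deposited scaling (black circles) and scaled on Krt8 and Krt18 (orange squares); dotted lines mark 2-fold and the grey band spans the 5th to 95th percentile of measured genes (-3.09 to 1.88). Under the deposited scaling Aldh1a7 lies below the band, Aldh1a2 lies just inside its upper edge, and Rara, Aldh1a3 and Crabp2 turn from above to below 0 with the scaling.

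Ordered by level per exon length, the LRC library had Aldh1a1 first (779 normalised counts per kilobase), then Rara (473), Rarg (241), Aldh1a7 (161), Rdh10 (141), Aldh1a2 (74.0), Crabp2 (70.2), Aldh1a3 (49.5) and Rarb (14.97). Neighbours in this order differed beyond counting error except Aldh1a7 and Rdh10, and Aldh1a2 and Crabp2. In the non-LRC library the order was Aldh1a1 (3821), Aldh1a7 (1506), Rarg (769), Rdh10 (629), Rara (352), Crabp2 (64.7), Rarb (45.3), Aldh1a3 (41.0) and Aldh1a2 (21.3), where Rarb and Aldh1a3 did not differ beyond it. Rara thus stood 2nd in the LRC and 5th in the non-LRC library, and Aldh1a2 moved from last place in the non-LRC to 6th in the LRC library. By the longest coding transcript, Aldh1a1 was again first in both, Rara again 2nd and 5th, and Aldh1a2 was 7th and last.

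The RXR partners showed a similar exchange of places. Rxra, the main RXR of epithelia, had 931 reads (929 normalised counts) against 3627 (3299 normalised counts), a log2 ratio of -1.83 (interval -1.93 to -1.72). Rxrb had 1964 against 1735 reads, a log2 ratio of 0.31 (0.22 to 0.41) that turned to -0.47 under the keratin scaling. Rxrg had 103 against 32 reads and was 3.53-fold higher (2.35 to 5.43). Per exon length, Rxra stood at 0.345 times the level of Rxrb (0.319 to 0.373) in the LRC and 1.52 times (1.44 to 1.61) in the non-LRC library. Of the 17 receptor partners and coregulators, 2 were higher (Rxrg and Trim24), 1 was lower (Rxra) and 14 were neither, with a median of -0.19. Over all measured genes 14.5% were higher and 19.4% lower. Under the keratin scaling 1 of the 17 was higher and 8 were lower (median -0.98), beside 5.23% and 41.3% of all measured genes. Trim24, a cofactor of RARs, was at 1.07 (1.01 to 1.14) and no longer called when scaled by total reads (0.87) or on the keratins (0.29). Nrip1, a corepressor and the most abundant of the list per exon length, was at -0.91 (-0.94 to -0.87). It was called lower when scaled by total reads (-1.11) or on the keratins (-1.69).

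**Figure D3:**
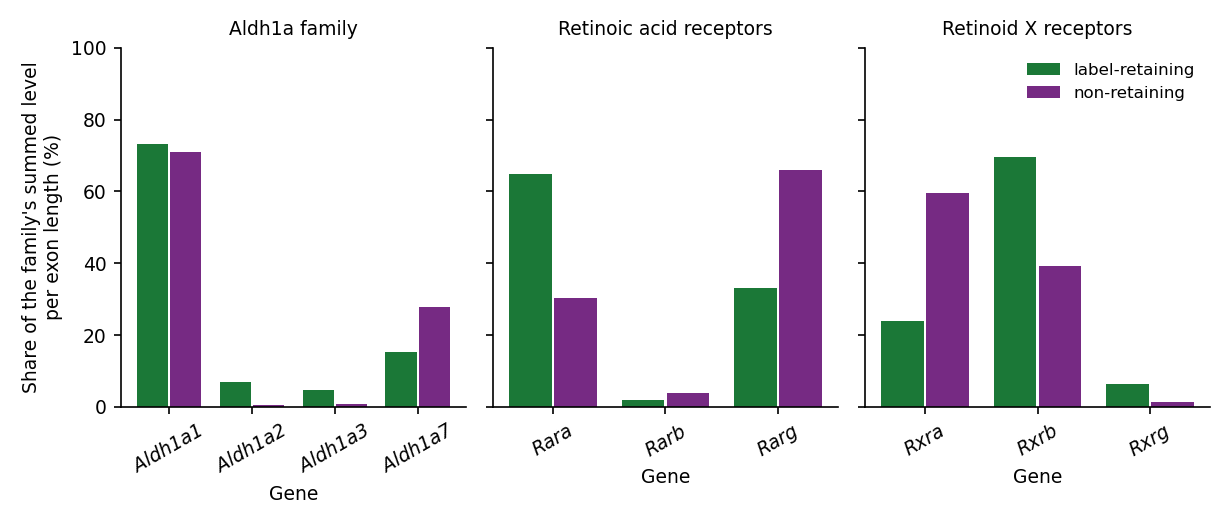
Share of each gene in the summed level per exon length of its family (percent, vertical axis) for the Aldh1a family, the RARs and the RXRs, in the LRC (label-retaining, green) and non-LRC (non-retaining, purple) library. Rarg and Rxra held most of their families' level in the non-LRC library (65.9% and 59.6%), and Rara and Rxrb in the LRC library (64.9% and 69.7%).

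Genes for the uptake, transport and storage of retinol were divided. Of 14 listed, 9 were measured, 3 higher and 4 lower (beside 14.5% higher and 19.4% lower over all measured genes). The median was 0.73, and -0.06 under the keratin scaling. Dgat1, which can esterify retinol, was at -2.45 (-2.60 to -2.30), and Lrp1, a receptor for lipoprotein remnants and the most abundant of the list per exon length, at -2.32 (-2.37 to -2.27). Higher were Lpl, a lipase acting on circulating lipoproteins, at 2.05 (1.85 to 2.26), Stra6l, a retinol transporter, at 1.55 (0.88 to 2.31) from 65 against 24 reads, and Lrat, the main retinol-esterifying enzyme, at 1.59 (0.45 to 3.03) from 23 against 8 reads. Under the keratin scaling Lpl stayed called (1.27), whereas Stra6l (0.78) and Lrat (0.84) did not.

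The list of other retinol and retinal oxidoreductases also holds Retsat and the carotenoid-cleaving enzymes Bco1 and Bco2. Of 21 measured, 7 were higher and 4 lower (beside 14.5% higher and 19.4% lower over all measured genes). The median was 0.61, and -0.33 under the keratin scaling. Adh1, an alcohol dehydrogenase that oxidises retinol and the most abundant of the list per exon length, had 6058 against 18405 reads, a log2 ratio of -1.47 (-1.51 to -1.43). Adh7, an alcohol dehydrogenase of stratified epithelia, was 19.7-fold lower with 117 against 2534 reads (-4.30, -4.58 to -4.04). Dhrs9, a retinol dehydrogenase, was at -2.68 (-2.99 to -2.39). Dhrs3, a retinal reductase that is induced by retinoic acid, was at -1.93 (-2.03 to -1.84). On the higher side, Akr1b7 was at 3.20 (2.62 to 3.88), Akr1b3 at 1.30 (1.27 to 1.33) and Retsat, a retinol saturase, at 1.40 (1.22 to 1.58). The Akr1b genes encode aldo-keto reductases, some of which reduce retinal. Under the keratin scaling Akr1b7 stayed called (2.42), and Akr1b3 (0.52) and Retsat (0.62) did not.

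Of the genes that bind or clear retinoic acid, 4 were measured, 1 higher and 2 lower. Over all measured genes 14.5% were higher and 19.4% lower. Cyp26b1, which degrades retinoic acid, had 42 reads (41.9 normalised counts) in the LRC and 668 reads (608 normalised counts) in the non-LRC library, 14.5-fold lower (log2 ratio -3.84, interval -4.34 to -3.41). Cyp2s1, a cytochrome P450 reported to metabolise retinoic acid, was at -3.34 (-3.48 to -3.21). Fabp5, a fatty acid-binding protein that can carry retinoic acid to another receptor, had 3577 against 1390 reads, 2.82-fold higher (2.65 to 3.01), with a log2 ratio of 0.71 under the keratin scaling. Per exon length, Fabp5 was 14.3 times as abundant as Crabp2 in the LRC library (interval 11.6 to 17.7) and 5.48 times (4.45 to 6.83) in the non-LRC library. Crabp1 was at 0.19 (-0.07 to 0.44), an interval that held 0.

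Known retinoic acid target genes were more often lower than higher. Of 30 listed, 22 were measured, 11 lower, 3 higher and 8 neither, with a median of -0.97 (beside 19.4% lower and 14.5% higher over all measured genes). Besides Cyp26b1, which the list of clearance genes also holds, Tgm2, a transglutaminase, had 2840 against 41076 reads (-3.72, -3.78 to -3.67). The higher ones were Rarres2, which encodes chemerin, at 1.15 (0.91 to 1.40), Pla2g16, a phospholipase gene, at 1.04 (0.91 to 1.18), and Lrat. None of these 3 was called under the keratin scaling (0.37, 0.26 and 0.84), nor Rarres2 (0.95) and Pla2g16 (0.84) under total reads. With the keratin scaling the list had 16 lower of 23 measured, beside 41.3% lower over all measured genes. Btg2, an antiproliferative gene and the most abundant of the list per exon length, was neither, at -0.31 (-0.34 to -0.28). Under the keratin scaling it was called lower (-1.09). In these libraries the basal markers had a median of -4.39 and the smooth muscle markers of -2.94, and their part in these lower values was not tested.

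**Figure D4:**
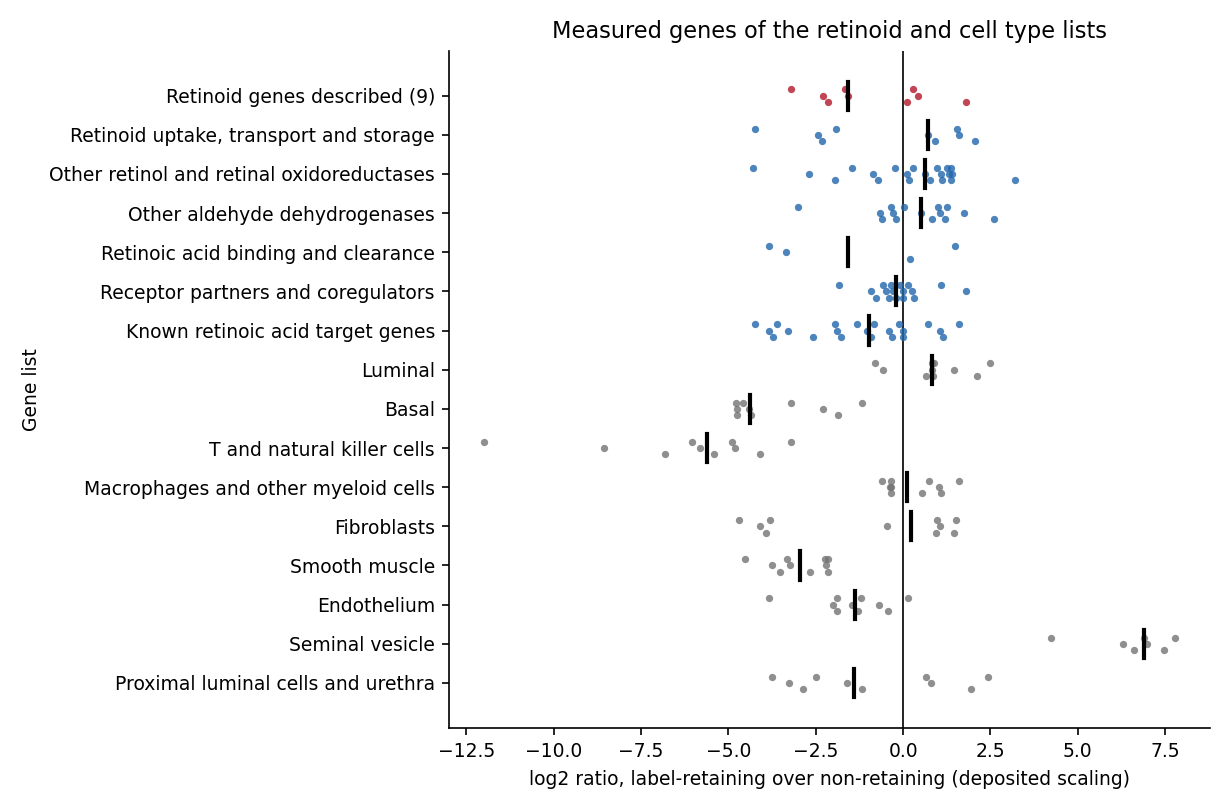
log2 ratio (LRC over non-LRC, deposited scaling) of each measured gene in the 9 retinoid genes (red), related retinoid lists (blue) and cell type markers (grey), 1 point per gene, with the list median as a black bar. The 9 retinoid genes span -3.22 to 1.79, inside the spread of the related lists. Their median (-1.59) lies between those of the basal (-4.39) and smooth muscle (-2.94) markers and those of the endothelial (-1.37) and proximal luminal (-1.40) markers.

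The values of the 5 lower retinoid genes, from -3.22 to -1.59, can be set beside the cell type markers with the same sign. They lay nearer to equality than the keratin genes of basal cells, such as Krt17 (3139 against 73509 reads, -4.42) and Krt5 (962 against 28725 reads, -4.77), and within the range of all 10 basal markers, -4.78 to -1.17. Ccl5 and Gzmb, genes of T and natural killer cells, were at -4.89 and -8.54, Smtn of smooth muscle at -3.75, and the endothelial markers Lyve1 and Cdh5 at -3.85 and -1.20. Dcn and Gsn of the fibroblast list were at -4.09 and -0.47, and 5 of its 10 markers had ratios above 0. Macrophage and other myeloid markers had 3 higher and 0 lower of 10 (median 0.11), with Cd14 at -0.33. Markers of proximal luminal cells had 2 higher and 6 lower of 10 (median -1.40), with Clu at 1.95. Which cells in the sorts carried the retinoid transcripts was not tested.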

How the data were processed

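RNA from 1 label-retaining and 1 non-retaining luminal population went into strand-keeping total RNA libraries (TruSeq), per the labels' protocols. The deposited values are a signal, gene counts that the authors divided by 1 size factor per library. All values (100%, tolerance 1e-06 reads) were whole multiples of a step, which gave back whole reads and factors of 1.00 (label-retaining) and 1.10 (non-retaining). DESeq 1.16.0, HTSeq 0.6.0, Bowtie2 2.1.0, TopHat2 2.0.10, CASAVA 1.8.2 and the build mm10 are listed, with no roles, in the submitters' processing notes. The annotation, the strand setting and the choice of rows were not given in the sources used here. Summed over the 18724 deposited rows, there were 50689229 and 48334265 reads. Percentages of reads are of these sums, and the depth of sequencing itself is not known from them.

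Symbols, positions and exon lengths came from GENCODE M21 (GRCm38, also called mm10), matched by Ensembl identifier without version for 18634 of 18724 rows. Promoter windows came from RefSeq (GRCm38.p6). Log2 ratios used a pseudocount of 0.5 normalised counts, Clopper-Pearson intervals of 95% for ratios and exact Poisson intervals for counts, and a minimum mean of 10 (17183 genes kept, 1541 left out). Folds are without pseudocount. With 1 library per group no count model, test or p-value was possible. Alternatives covered scaling (TMM by edgeR 4.0.16 in R 4.3.3), pseudocount, filter, fold and exon length. Python 3.11.15 and SciPy 1.17.1 were used.

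The members and lists were chosen with earlier results of these data known. The genes named were all 9, up to 3 called genes per direction of each related list (farthest interval bound) with its most abundant, and the most abundant cell type markers. Some genes that this rule names are not reported here. Krt5, Krt8, Krt18, Epcam, Gzma, Svs3a, Svs6, Bco1, Bco2, Rxrb, Crabp1 and Top2b were added after their values were seen. Of 105 related genes, 89 had a row. The others, Cyp26a1 among them, were not analysed here.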

Additional observations from a re-analysis of the deposited data

How the results depend on the processing

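Of the 9 retinoid genes, 5 lower and 1 higher were called under each of 4 other scalings, a pseudocount of 5, no filter, a minimum mean count of 100 and a fold of 1.5. With a fold of 4, 3 were lower (Aldh1a1, Aldh1a7 and Rdh10) and 0 higher. Of 82 measured related genes, 20 were higher and 20 lower, beside 14.5% and 19.4% of all measured genes. The keratin scaling gave 4 higher and 37 lower, beside 5.23% and 41.3% of all measured genes. A fold of 4 gave 3 higher and 12 lower. Other settings gave 15 to 27 higher and 17 to 27 lower. The shares of all measured genes called with the other folds, filters and pseudocount were not computed. The counts at those settings, for the 9 genes and the related genes, thus cannot be set beside such a share. Within the single values, Rara, Aldh1a3 and Crabp2 changed sign with the keratin scaling, Crabp2 also with total reads, and none of the 6 called genes did. By construction each scaling shifts all ratios by the same amount. For median of ratios and TMM that amount is too small to change any of the 6 calls. Removing the filter could not change a call of the 9 genes, because all of them passed it. A fold of 1.5 could not remove a call. The minimum of 100 could not either, because the lowest mean among the 6 called genes was 108 (Aldh1a2). No paired analysis was possible because each group has 1 library, and no library could be left out for the same reason. Counts of Crabp2, Rarb, Aldh1a2 and Aldh1a3, at most 262 reads in a library, limit their precision.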

Other observations

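The aldehyde dehydrogenases outside the Aldh1a family act mostly on other aldehydes, and their calls under the deposited scaling were divided. Of 17 listed, 15 were measured, 5 higher, 1 lower and 9 neither (beside 14.5% higher and 19.4% lower over all measured genes), with a median log2 ratio of 0.51 that was -0.27 under the keratin scaling, where 1 was higher and 5 lower. Aldh2, the mitochondrial acetaldehyde dehydrogenase and the most abundant of the list per exon length, had 14057 reads in the LRC library and 24356 in the non-LRC library (-0.66, interval -0.69 to -0.63). Aldh1l2, the mitochondrial enzyme of folate metabolism, had 1884 against 341 reads (2.60, 2.43 to 2.77). Aldh3a2, which oxidises fatty aldehydes, had 13127 against 6079 reads (2.37-fold higher, 2.30 to 2.44), and Aldh3b1 247 against 81 (1.74, 1.37 to 2.12). Aldh3a1, an enzyme of corneal and stratified epithelia, was the lower one, with 51 against 457 reads (-3.02, -3.48 to -2.61). Under the keratin scaling Aldh1l2 stayed called at 1.82, while Aldh3a2 was at 0.46 and Aldh3b1 at 0.96.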
